A study of Mus musculus with 20 samples.

Results

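The genes described are 10 inflammatory cytokines and colony stimulating factors, chosen by mouse gene symbol: Tnf, Il6, Il1a, Il1b, Il1rn, Lif, Il11, Csf1, Csf2 and Csf3. All 10 were found among the 35226 genes of the count table, and 9 of them passed the filter on low counts, Csf2 being the exception. They were measured by mRNA sequencing in 20 tumors of LLC1, a Lewis lung carcinoma cell line of mouse origin, grown under the skin of male C57Bl6/J mice aged 8 to 10 weeks. One group was given the carrier alone (vehicle) and another KW6002, or istradefylline, which blocks an adenosine receptor. The remaining mice were given cisplatin, a platinum drug that crosslinks DNA, either by itself or together with KW6002 (cotreatment). Each group had 5 tumors, and each tumor gave 1 library of 28.4 to 41 M counted reads. The host mice have intact immunity, so a tumor holds carcinoma cells, stroma and leukocytes in one RNA sample, and in such bulk RNA fewer cells of a type and less RNA per cell cannot be told apart.

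TNF and the IL-1 ligands are early messengers of inflammation: they bind receptors that activate NF-kB, and NF-kB in turn drives chemokines, adhesion molecules and further cytokines. IL-6, LIF and IL-11 form a family that signals through the shared receptor chain gp130 and STAT3. The colony stimulating factors sustain myeloid cells, with CSF1 acting on macrophages, CSF2 on granulocytes and macrophages, and CSF3 on neutrophils. Many cytokine mRNAs are short lived because AU-rich elements in their 3′ untranslated regions recruit decay factors.

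All 10 genes are annotated as protein coding (GENCODE, GRCm38). The 3 IL-1 genes lie on chromosome 2, Il1a at chr2:129299610-129309972 and Il1b at chr2:129364570-129371139 on the minus strand and Il1rn at chr2:24336853-24351494 on the plus strand. Lif (chr11:4257557-4272514, plus), Csf2 (chr11:54247271-54249667, minus) and Csf3 (chr11:98701263-98703629, plus) lie on chromosome 11. Tnf lies at chr17:35199381-35202007 (minus), Il6 at chr5:30013114-30019981 (plus), Il11 at chr7:4772373-4782859 (minus) and Csf1 at chr3:107741048-107760469 (minus). Il1a, Il1b and Csf2 share 222, 25 and 96 exon bases with a gene on the opposite strand, and the strand setting of the counting was not given in the sources used here. HTSeq was run in union mode, which leaves out a read over bases of both genes as ambiguous unless strand is used, so the values of these members may lack such reads.

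The start regions of 3 members lowered by cotreatment and of Lif, which did not pass any test, are shown so that the known control elements can be seen beside the values. Each runs from 250 bases before to 50 bases after the RefSeq start, on the strand of the gene, in the build GRCm38.p6. Capitals mark matches on either strand to 4 motifs. NF-kB was searched as GGNNTTTCC, which 5.82% of 32851 such regions held. AP-1 was searched as TGANTCA, which was present in 7.81% of them. The C/EBP motif TTGCNNAA was present in 10.8%. The TATA motif was searched as TATAAA and was present in 13.6%. None of the printed matches overlapped.
Il1b, chr2:129371090-129371389, minus strand: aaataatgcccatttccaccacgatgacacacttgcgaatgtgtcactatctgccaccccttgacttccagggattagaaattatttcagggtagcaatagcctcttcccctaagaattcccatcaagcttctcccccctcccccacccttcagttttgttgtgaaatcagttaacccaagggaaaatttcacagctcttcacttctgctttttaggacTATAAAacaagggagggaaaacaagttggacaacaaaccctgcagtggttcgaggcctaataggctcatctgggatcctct
Il6, chr5:30012864-30013163, plus strand: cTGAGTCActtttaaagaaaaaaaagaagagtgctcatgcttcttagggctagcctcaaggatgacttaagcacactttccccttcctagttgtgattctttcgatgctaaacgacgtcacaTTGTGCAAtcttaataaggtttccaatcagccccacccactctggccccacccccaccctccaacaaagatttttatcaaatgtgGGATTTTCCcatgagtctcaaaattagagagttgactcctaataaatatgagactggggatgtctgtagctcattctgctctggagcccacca
Tnf, chr17:35201958-35202257, minus strand: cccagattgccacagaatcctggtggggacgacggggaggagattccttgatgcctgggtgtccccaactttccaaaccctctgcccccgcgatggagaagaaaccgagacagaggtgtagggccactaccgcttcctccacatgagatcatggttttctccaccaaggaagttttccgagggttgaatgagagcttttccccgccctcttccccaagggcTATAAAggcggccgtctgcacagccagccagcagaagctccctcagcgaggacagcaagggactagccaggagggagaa
Lif, chr11:4257318-4257617, plus strand: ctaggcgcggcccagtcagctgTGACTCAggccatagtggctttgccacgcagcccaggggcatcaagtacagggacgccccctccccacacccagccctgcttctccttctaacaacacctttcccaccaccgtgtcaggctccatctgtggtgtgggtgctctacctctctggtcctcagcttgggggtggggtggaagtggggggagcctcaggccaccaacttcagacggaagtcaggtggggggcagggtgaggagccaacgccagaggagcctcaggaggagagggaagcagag

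The Il6 region held 1 match each to the NF-kB, AP-1 and C/EBP motifs, the NF-kB match beginning 43 bases before the start. The Il1b and Tnf regions held only the TATA motif of the 4, and the Lif region only AP-1. Csf1 held 1 NF-kB match on its opposite strand, beginning 154 bases before its start, Csf2 held 1 beginning 23 bases after its start and a C/EBP match, and Il1rn has 3 starts in the table, of which the first held AP-1. The others lie close together and share 1 NF-kB match, and the third also held TATA on the opposite strand. Il1a held AP-1 beginning 12 bases before its start and TATA beginning 32 bases before it. Il11 has 2 starts in the table, of which the first held none of the 4 motifs and the second held AP-1. The table was matched for 9 of the 10 members, all but Csf3. A match is a description of letters and not evidence of binding.

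The 3′ untranslated regions carried the AU-rich pentamer ATTTA in 9 of the 10 genes, beside 69.6% of 13626 tested genes with such a region. Stretches of 30 bases that held the most pentamers are shown for 6 genes to set mRNAs of different density side by side, with the pentamer in capitals and positions counted from the base after the stop codon.
Csf2, 230 to 259: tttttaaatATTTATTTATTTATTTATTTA
Tnf, 437 to 466: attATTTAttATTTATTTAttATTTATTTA
Il1b, 192 to 221: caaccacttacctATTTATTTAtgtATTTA
Csf3, 24 to 53: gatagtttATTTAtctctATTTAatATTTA
Il11, 32 to 61: ctttaaaaccagatcttATTTATTTATTTA
Csf1, 2021 to 2050: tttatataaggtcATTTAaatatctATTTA

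Csf2 had 9 pentamers in 317 bases, or 28.4 per kb, and Tnf had 8 in 764 bases, or 10.5 per kb. The density was 8.97 per kb in Csf3, 8.71 in Il1b, 8.38 in Il11 and 6 in Il6. It was 2.72 per kb in Il1a, 2.2 in Lif and 1.89 in Csf1, and Il1rn had none in 1864 bases. The median over tested genes was 1.34 per kb. Csf1 and Lif, sparse among the members, were thus above that median. The genes lowered by cotreatment ran from 0 per kb in Il1rn to 10.5 in Tnf, and Lif and Il11, which passed no test, lay within that range.

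Levels in vehicle tumors were compared per length, as CPM per kb of exon (CPM, counts per M reads of the scaled library size). Csf1 stood highest at 52.5 ± 3.96, followed by Il1b at 14 ± 6.75 and Lif at 6.71 ± 1.28 (mean ± SD, n = 5). Il11 followed at 3.9 ± 0.637, Il1rn at 2.89 ± 0.609, Csf3 at 1.96 ± 1.46 and Tnf at 1.72 ± 0.382. Il6 at 0.496 ± 0.346, Csf2 at 0.395 ± 0.465 and Il1a at 0.19 ± 0.0722 were lowest. The ranges of Csf1 and Il1b did not overlap, nor did those of Lif and Il11 or of Tnf and Il6, whereas the other neighbours in this order overlapped. After cotreatment Csf1 was again highest at 41.5 ± 4.91 and Lif next at 6.16 ± 0.943, with Il1b at 1.83 ± 1.5 and Csf3 at 0.138 ± 0.0479.

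**Figure D1:**
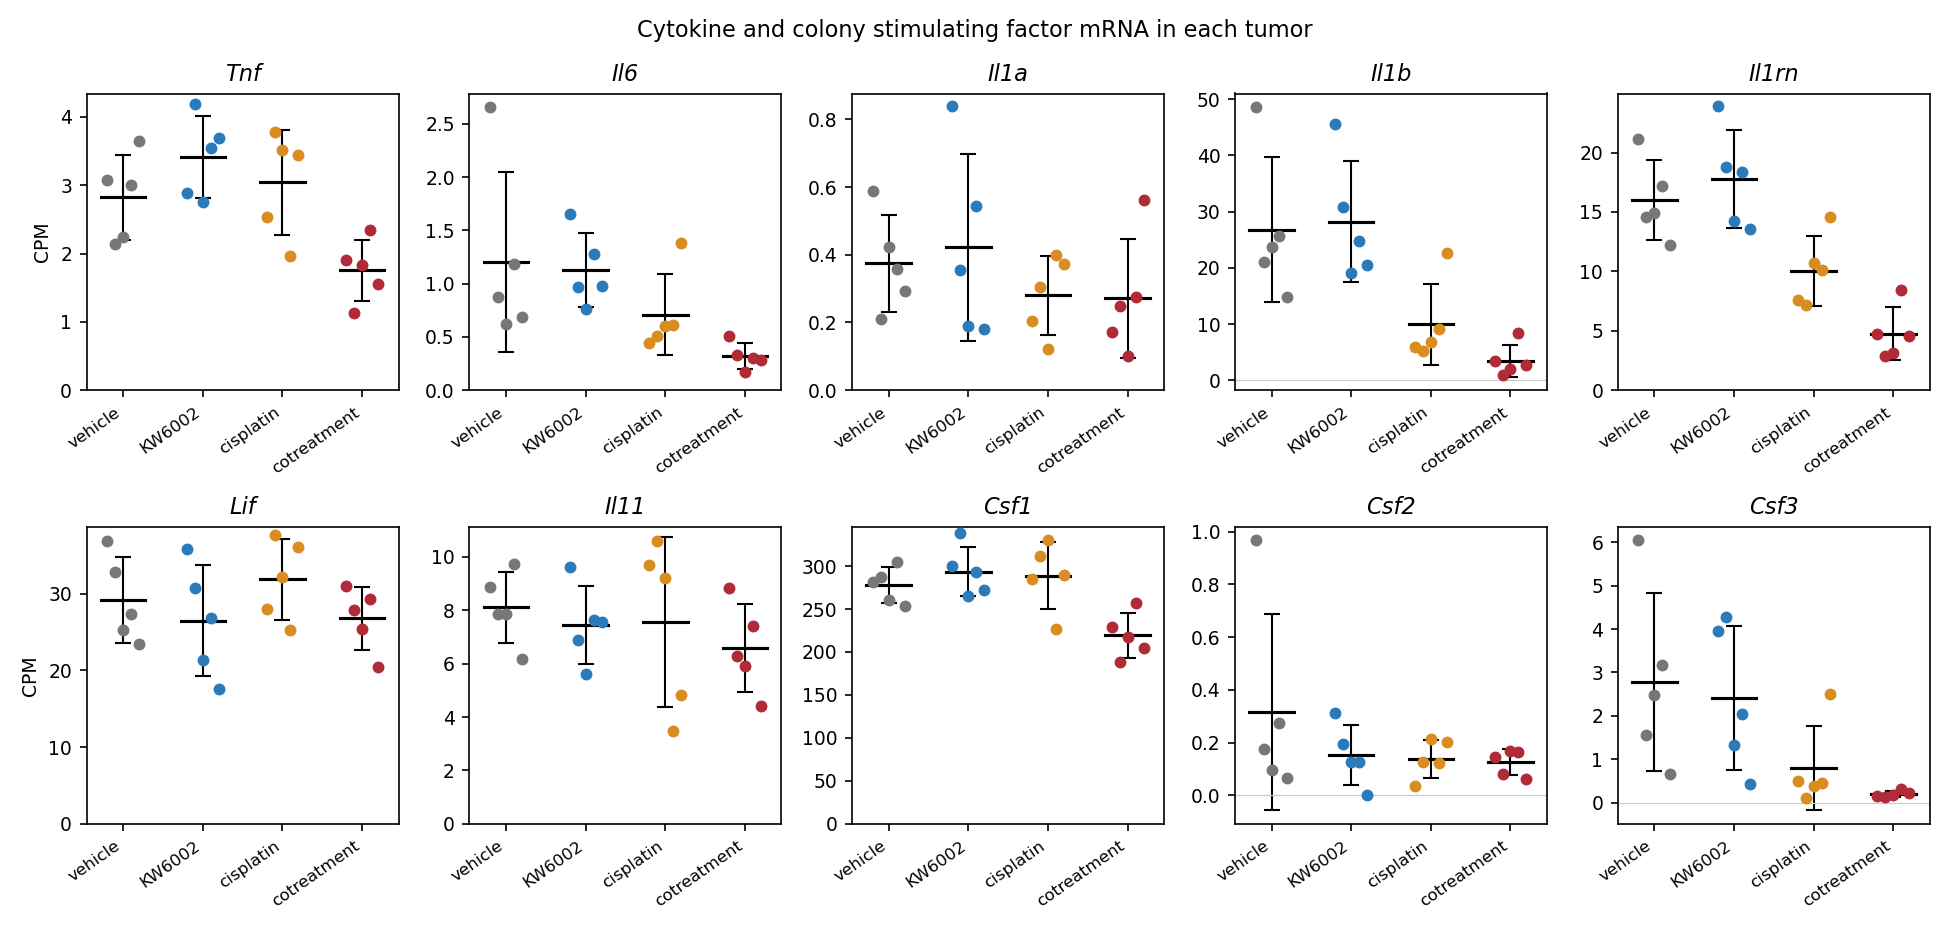
Expression of the 10 genes in every tumor, in CPM on linear axes, with tumors as points, means as horizontal lines and SD as error bars (n = 5 per group). The cotreated tumors lie below every vehicle tumor for Il6, Il1b, Il1rn and Csf3, while Lif and Il11 overlap throughout.

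The first comparison asked whether KW6002 alone altered these transcripts in the tumor. None of the 9 tested members passed the test (edgeR quasi-likelihood test, adjusted P under 0.05 and a log2 fold change of at least 0.32 in size), beside 0% of the 16665 genes tested. DESeq2 also called none of the members, and 338 genes had an unadjusted P under 0.05 in edgeR. That number is below the share of 0.05 that chance alone would give over 16665 genes. The log2 fold changes ran from -0.2 (Csf3) to 0.27 (Tnf). For Csf1 the 95% interval of the log2 fold change was -0.11 to 0.28, and for Csf3 it was -1.57 to 1.17, which leaves room for a change of more than 1 log2 unit in either direction.

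The second comparison asked what cisplatin alone did. No tested member passed the test, where 10.6% of all genes did and 4.56% were lower; DESeq2 called 2 (Il1b and Il1rn), beside 11.1% of the genes it tested. Il1b, the secreted IL-1 ligand, was measured at 26.8 ± 12.9 CPM after vehicle and 9.91 ± 7.24 CPM after cisplatin, a log2 fold change of -1.43 (SE 0.51, edgeR adjusted P = 0.0632). The values of Il1rn were -0.67 (SE 0.26, adjusted P = 0.0791) and those of Csf3 -1.8 (SE 0.7, adjusted P = 0.0862). One tumor, cisplatin replicate 5, stood apart. Without it 4 members passed, namely Il6 at -1.14 (adjusted P = 0.0494), Il1b at -1.98 (adjusted P = 0.0133), Il1rn at -0.84 (adjusted P = 0.0389) and Csf3 at -2.94 (adjusted P = 0.00753), where 9.63% of all genes passed in that fit and 3.99% were lower. Tnf, Lif and Csf1 had log2 fold changes of 0.11, 0.13 and 0.06.

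The third comparison set cotreated against vehicle tumors. Of the 9 tested members 6 were lower and none higher, where 23.5% of all genes passed and 10.4% were lower. The median log2 fold change was -0.69 over the members and -0.02 over all genes. The lowered genes were Tnf, Il6, Il1b, Il1rn, Csf1 and Csf3, and Il1a, Lif and Il11 did not pass. Il1a passed in a fit that refers to the earlier run of library codes, described with the runs.

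**Figure D2:**
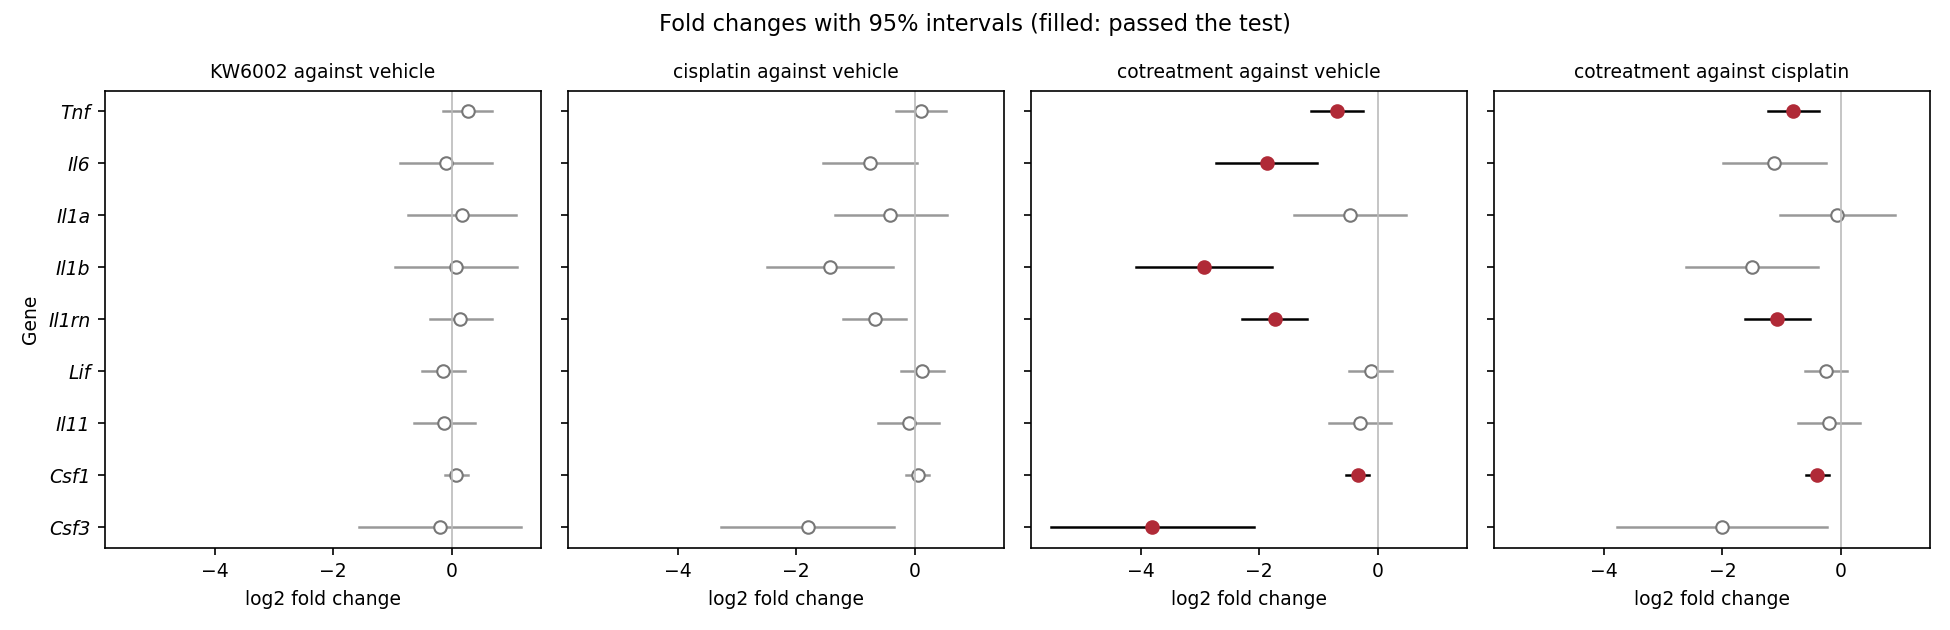
Log2 fold changes (horizontal axis) of the 9 tested genes in 4 comparisons, with 95% intervals from the edgeR fit; filled points passed the test. In cotreatment against vehicle 6 points are filled, in cotreatment against cisplatin 3, and in the other 2 panels none.

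Csf3, the growth factor of neutrophils, changed by the most. Vehicle tumors had 6.04, 1.55, 2.48, 3.16 and 0.652 CPM and KW6002 tumors 3.95, 4.28, 1.33, 2.05 and 0.434 CPM. Cisplatin tumors had 0.507, 0.101, 0.393, 0.46 and 2.5 CPM and cotreated tumors 0.147, 0.138, 0.17, 0.303 and 0.218 CPM. All cotreated tumors lay below every vehicle and every KW6002 tumor, on 5 to 11 reads each. The log2 fold change against vehicle was -3.81 (SE 0.82, edgeR adjusted P = 0.00144), or 14-fold lower. In the later run of library codes alone it was -2.87 (adjusted P = 0.0885) and did not pass.

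Il1b encodes the IL-1 ligand that caspase-1 cleaves before release. Its level was 48.6, 21.1, 23.7, 25.7 and 14.8 CPM in vehicle tumors and 45.6, 30.9, 19.1, 24.8 and 20.5 CPM in KW6002 tumors. It was 5.85, 5.23, 6.77, 9.13 and 22.6 CPM in cisplatin tumors and 3.5, 0.936, 2.01, 8.33 and 2.65 CPM in cotreated tumors. The cotreated tumors did not overlap with the vehicle or KW6002 tumors, but overlapped with the cisplatin tumors. Against vehicle the log2 fold change was -2.93 (SE 0.54, edgeR adjusted P = 0.000532), or 7.63-fold lower. It was -3.55 (adjusted P = 0.000112) without cotreatment replicate 4, the highest of its group, and -1.93 (adjusted P = 0.0552) in the later run of library codes alone.

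Il6, the founding ligand of the gp130 family, was rare. Vehicle tumors had 2.66, 0.878, 0.62, 1.18 and 0.684 CPM and cotreated tumors 0.513, 0.33, 0.17, 0.303 and 0.281 CPM, with no overlap. KW6002 tumors had 1.65, 0.967, 0.759, 1.28 and 0.976 CPM and cisplatin tumors 0.439, 0.507, 0.605, 0.613 and 1.38 CPM. The cotreated tumors rested on 5 to 21 reads each, and the log2 fold change against vehicle was -1.87 (SE 0.41, edgeR adjusted P = 0.00125).

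Il1rn encodes the IL-1 receptor antagonist, which occupies the IL-1 receptor without activating it. It was measured at 21.1, 14.6, 14.9, 17.2 and 12.2 CPM after vehicle and 23.9, 18.8, 14.2, 18.4 and 13.6 CPM after KW6002. After cisplatin it was 7.6, 7.18, 10.7, 10.1 and 14.6 CPM and after cotreatment 4.74, 2.86, 3.17, 8.47 and 4.55 CPM. The antagonist therefore moved in the same direction as the ligand, with a log2 fold change of -1.74 after cotreatment (SE 0.26, edgeR adjusted P = 6.17e-05), and the cotreated and vehicle tumors did not overlap.

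Because both fell, the log2 ratio of Il1rn to Il1b counts was computed per tumor with 2 added to each count, as a description. It was -0.65 ± 0.34 after vehicle, -0.62 ± 0.21 after KW6002, 0.2 ± 0.5 after cisplatin and 0.68 ± 0.56 after cotreatment (SD, n = 5). The range was -1.2 to -0.28 in vehicle tumors and 0.02 to 1.56 in cotreated tumors, without overlap. Counts were not scaled for length here. The exons span 5535 bases in Il1rn and 1907 in Il1b, so a ratio of 0 does not mark equal levels. Per kb of exon the cotreated mean was still higher for Il1b, at 1.83 ± 1.5 CPM, than for Il1rn, at 0.86 ± 0.403 CPM. The ratio of Il1rn to Il1a, the IL-1 ligand that acts without cleavage, went the other way, from 5.23 ± 0.32 after vehicle to 3.91 ± 0.79 after cotreatment, on 3 to 18 Il1a reads per cotreated tumor.

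Tnf, the ligand of both TNF receptors, had 3.07, 2.14, 2.25, 3 and 3.65 CPM after vehicle and 2.89, 4.19, 2.75, 3.55 and 3.69 CPM after KW6002. After cisplatin it had 2.53, 3.78, 3.51, 1.96 and 3.44 CPM and after cotreatment 1.91, 1.13, 1.84, 2.34 and 1.56 CPM. The cotreated and KW6002 tumors did not overlap, whereas cotreated and vehicle tumors did. The log2 fold change against vehicle was -0.69 (SE 0.21, edgeR adjusted P = 0.0135). With the later run of library codes alone it was -0.48 (adjusted P = 0.282) and did not pass.

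Csf1, the macrophage growth factor, was the most abundant member and varied the least. It had 282, 287, 261, 305 and 253 CPM after vehicle and 300, 338, 265, 293 and 272 CPM after KW6002. It had 285, 312, 330, 227 and 290 CPM after cisplatin and 229, 188, 217, 257 and 205 CPM after cotreatment. The fall of 0.34 on the log2 scale (log2 fold change -0.34, SE 0.09, edgeR adjusted P = 0.00751) was close to the fold limit, and without vehicle replicate 2 or 4 or cotreatment replicate 2 or 5 it no longer passed, at -0.32, -0.3, -0.28 and -0.32.

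Lif and Il11, ligands of the gp130 family, had log2 fold changes after cotreatment of -0.12 (95% interval -0.48 to 0.24) and -0.3 (95% interval -0.82 to 0.22). Lif had 29.2 ± 5.58 CPM after vehicle, 26.5 ± 7.24 after KW6002, 31.9 ± 5.25 after cisplatin and 26.8 ± 4.1 after cotreatment. Il11 had 8.11 ± 1.33, 7.46 ± 1.46, 7.56 ± 3.2 and 6.59 ± 1.66 CPM in the same order. Il1a had 0.374 ± 0.142, 0.422 ± 0.276, 0.28 ± 0.117 and 0.271 ± 0.175 CPM, and its interval after cotreatment, -1.41 to 0.48, leaves room for a fall of more than 1 log2 unit. Csf2, the granulocyte and macrophage factor, had 0.966, 0.176, 0.0979, 0.275 and 0.0652 CPM after vehicle, where replicate 1 stood apart, and 0.147, 0.0826, 0.17, 0.165 and 0.0623 CPM after cotreatment. The exact permutation test of the mean CPM gave P = 0.262 for this comparison and no value under 0.262 in the 5 comparisons tested (two-sided, over all arrangements of 10 tumors, the smallest possible P being 0.00794).

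The comparison of cotreated with cisplatin tumors asked what KW6002 added to cisplatin. Here 3 members were lower, Tnf at -0.8 (SE 0.21, edgeR adjusted P = 0.0249), Il1rn at -1.07 (SE 0.26, adjusted P = 0.0214) and Csf1 at -0.4 (SE 0.09, adjusted P = 0.0158), where 4% of all genes passed and 1.71% were lower. Il1b at -1.5 (adjusted P = 0.103), Il6 at -1.12 (adjusted P = 0.112) and Csf3 at -2 (adjusted P = 0.163) did not pass. Without cisplatin replicate 5 the value of Csf3 was -0.86 (adjusted P = 0.592). Il1b did pass with DESeq2 (-1.5, adjusted P = 0.0394), which called 5.42% of the genes it tested, and, in edgeR, without cotreatment replicate 4 (-2.12, adjusted P = 0.0186), where 6.1% of all genes passed. Calls in this comparison, of these members and over all genes, changed with the tumors in the fit. Without cisplatin replicate 3 or cotreatment replicate 2 none of the 3 members passed, where 2.36% and 1.74% of all genes did. Without cisplatin replicate 5 or cotreatment replicate 3 Csf1 passed and the other two did not, where 2.84% and 1.81% of all genes passed. Without cotreatment replicate 5 the adjusted P of Tnf was 0.0513, where 3.65% of all genes passed. With only the 10 tumors compared in the fit, the adjusted P values were 0.088 for Tnf, 0.0894 for Il1rn and 0.0754 for Csf1, where 1.24% of all genes passed. Il1rn also missed the threshold with no filter on low counts (-1.06, adjusted P = 0.0707), where 1.38% of the genes then tested passed, and Tnf in the earlier run alone (-0.97, adjusted P = 0.114), where 1.88% of all genes did. In the later run alone 1 gene of 16665 passed and none of these members, which were at -0.61, -0.85 and -0.29 for Tnf, Il1rn and Csf1.

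Against KW6002 tumors, cotreated tumors had the same 6 members lower, where 23.3% of all genes passed and 10.7% were lower. The log2 fold changes ran from -0.42 (Csf1) to -3.61 (Csf3). Without cotreatment replicate 4 the value of Il1b was -3.62, beside -3.01 with all tumors. In the earlier run of library codes alone Il1a passed too (-1.74, adjusted P = 0.0328), where 20.7% of all genes did, while in the later run it was 0.305 CPM after KW6002 and 0.418 CPM after cotreatment. In the later run alone Il6 and Il1rn passed, and Tnf (-0.76, adjusted P = 0.126), Il1b (-1.95, adjusted P = 0.0721), Csf1 (-0.25, adjusted P = 0.272) and Csf3 (-2.26, adjusted P = 0.209) did not, where 10% of all genes passed. This comparison and the one with vehicle share the cotreated tumors.

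Whether the effect of KW6002 differed with and without cisplatin was tested as an interaction. No member passed in edgeR, where 0.066% of all genes did (11 genes, and 2036 at an unadjusted P under 0.05). Tnf came to -1.07 (SE 0.29, unadjusted P = 0.00135, adjusted P = 0.135), Csf1 to -0.48 (SE 0.13, adjusted P = 0.137) and Il1rn to -1.23 (SE 0.36, adjusted P = 0.168). DESeq2 called these 3 members, with adjusted P values of 0.0281, 0.0398 and 0.0311, beside 1.97% of the genes it tested. The edgeR fit without cotreatment replicate 4 called them too, beside 1.35% of all genes.

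The library codes of the tumors fall into an earlier and a later run of numbers, with 1 vehicle tumor in the earlier run; what the runs stand for was not given in the sources used here. Within the later run, Il1b averaged 21.3 CPM after vehicle (n = 4), 21.4 after KW6002 (n = 3), 12.8 after cisplatin (n = 3) and 5.49 after cotreatment (n = 2). Within the earlier run it was 48.6 CPM in the vehicle tumor and averaged 38.3 after KW6002 (n = 2), 5.54 after cisplatin (n = 2) and 2.15 after cotreatment (n = 3). In the later run Tnf averaged 2.76, 3.33, 2.97 and 1.95 CPM in the same order. With the later run alone, 2 of the 6 members, Il6 and Il1rn, passed in cotreatment against vehicle, and Tnf (-0.48), Il1b (-1.93), Csf1 (-0.24) and Csf3 (-2.87) did not, where 13.3% of all genes passed.

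The runs were also modelled by 1 term in the tumors that received cisplatin and another in the rest (separate run terms), so that a comparison across cisplatin refers to 1 run. Referred to the earlier run, with its single vehicle tumor, cisplatin against vehicle had 4 members lower, where 6.61% of all genes passed and 3.05% were lower: Il6 (-1.64), Il1b (-3.01), Il1rn (-1.54) and Csf3 (-4.07). Referred to the later run it had 0 members called, where 14.8% of all genes passed, with Il6 at -0.31, Il1b at -0.75, Il1rn at -0.29 and Csf3 at -0.93. In the later run Il6 averaged 0.841 CPM after vehicle and 0.865 CPM after cisplatin. Averaged over the runs, 3 members were lower, Il1b (-1.88), Il1rn (-0.92) and Csf3 (-2.5), where 10.4% of all genes passed.

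In cotreatment against vehicle, the same model called 7 members referred to the earlier run, where 22.8% of all genes passed. The gene gained was Il1a at -1.51 (edgeR adjusted P = 0.0451). Referred to that run, Csf3 was at -5.68, Il1b at -4.29, Il6 at -2.64, Il1rn at -2.48, Tnf at -0.81 and Csf1 at -0.46. Il1a was 0.587 CPM in the vehicle tumor of that run and averaged 0.174 CPM after cotreatment, but in the later run it averaged 0.321 and 0.418 CPM, the opposite direction. Referred to the later run 4 members were lower, where 21.8% of all genes passed, namely Il6 (-1.32), Il1b (-2.03), Il1rn (-1.23) and Csf3 (-2.54), and Tnf (-0.62, adjusted P = 0.0674) and Csf1 (-0.3, under the fold limit) did not pass. Averaged over the runs the 6 members of the fit without run terms passed, where 23.6% of all genes did and 10.4% were lower. In cotreatment against KW6002, referred to the later run, 4 members were lower, where 19.9% of all genes passed. Il6 (-1.15, edgeR adjusted P = 0.0595) and Csf3 (-1.93, adjusted P = 0.0745) did not pass there.

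Markers of other cell types were measured beside the members. Their counts stand beside 23.5% of all genes called and 10.4% lower in cotreatment against vehicle, and 10.6% called and 4.56% lower in cisplatin against vehicle. Of 10 neutrophil markers 6 were tested and 4 were lower after cotreatment than after vehicle: S100a9 (log2 fold change -2.85), S100a8 (-2.05), Cxcr2 (-1.78) and Stfa2l1 (-1.78). After cisplatin 2 of the 6 were lower, Cxcr2 (-1.62, adjusted P = 0.0112) and S100a8 (-1.55, adjusted P = 0.0287). Mmp8 (0.01) and Retnlg (-0.39) did not pass after cotreatment, and their mean levels in vehicle and cisplatin tumors were 3.31 and 3.15 CPM for Mmp8 and 2.46 and 3.29 CPM for Retnlg. The summed level of the 10 ranged from 38.3 to 100 CPM after vehicle, 39.4 to 124 after KW6002, 10.7 to 54.6 after cisplatin and 10.9 to 27.3 after cotreatment, and consisted mainly of S100a9 and S100a8, with vehicle means of 33.1 and 17.7 CPM. Cisplatin replicate 5, the high tumor for Il1b, Il6 and Csf3, was also the highest of its group for this sum and for the dendritic cell sum, at 86.4 CPM. Ly6g, a defining marker, had at most 8 reads in any tumor, and Camp was at 0 in 19 of 20. Dendritic cell markers were lower in 5 of 8 after cotreatment, and their sum was 40.2 to 79.2 CPM after vehicle, 37.7 to 86.4 after cisplatin and 33.6 to 43.7 after cotreatment. After cisplatin 1 of the 8 was higher and none lower. Of 11 macrophage markers 3 were higher and 2 lower after cotreatment, and the sum was 1214 to 1643 CPM after vehicle, 1322 to 2333 after cisplatin, where 1 of the 11 was higher, and 1308 to 1746 after cotreatment. Endothelial markers were lower in 6 of 7 after cotreatment and in 7 of 7 after cisplatin, with sums of 150 to 222 CPM after vehicle, 75.2 to 103 after cisplatin and 81.1 to 120 after cotreatment.

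Of 7 mast cell and basophil markers 6 were lower and 1 higher after cisplatin, and 2 were lower and 1 higher after cotreatment. Their sum had medians of 74.4 CPM after vehicle, 70.6 after KW6002, 10.6 after cisplatin and 27.6 after cotreatment. Of 7 skeletal muscle markers none passed in either comparison, and their sum varied between tumors. It ranged from 4.83 to 66.4 CPM after vehicle, 4.45 to 279 after KW6002, 3.83 to 287 after cisplatin and 3.93 to 1257 after cotreatment. The medians were 5.39, 5.28, 170 and 17.3 CPM in the same order. Of 12 T and NK cell markers 1 was lower after cotreatment, Trac at -2.04 (edgeR adjusted P = 0.0317). Cd4 (-1.57, adjusted P = 0.106) and Cd3g (-1.6, adjusted P = 0.153) did not pass. The T and NK cell markers did not share a direction in mean level over vehicle, cisplatin and cotreatment. Prf1 had 0.917, 3.63 and 1.24 CPM in that order, Klrb1c 0.576, 1 and 0.726 CPM, and Gzmb 1.69, 3.75 and 1.66 CPM. The sum of the 12 had medians of 12 CPM after vehicle, 10.9 after KW6002, 10.9 after cisplatin and 6.24 after cotreatment. KW6002 replicate 1 stood apart for lymphocyte genes, at 41.7 CPM for this sum and 55.4 CPM for the sum of 5 B cell markers, which was at most 6.39 CPM in the other tumors. Without this tumor 0 members passed in KW6002 against vehicle and 6 in cotreatment against KW6002, where 0% and 21% of all genes passed. Of 8 fibroblast markers 2 were lower after cotreatment, Pdgfrb (-0.76) and Lum (-0.58), and 3 after cisplatin. Other fibroblast markers did not share this direction in both comparisons. Over vehicle, cisplatin and cotreatment the means were 1293, 1266 and 1529 CPM for Dcn, 160, 309 and 148 for Col1a1 and 235, 444 and 264 for Col1a2. The sum of the 8 overlapped, at 2655 to 3247 CPM after vehicle, 2181 to 3967 after cisplatin and 2578 to 3402 after cotreatment. As a check of the tissue label, the sum of 6 carcinoma markers, among them Krt8 and Krt18, was 392 to 426 CPM after vehicle and 468 to 549 after cotreatment, although Epcam had at most 5 reads in any tumor. The part of these cells in the cytokine values was not tested.

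**Figure D3:**
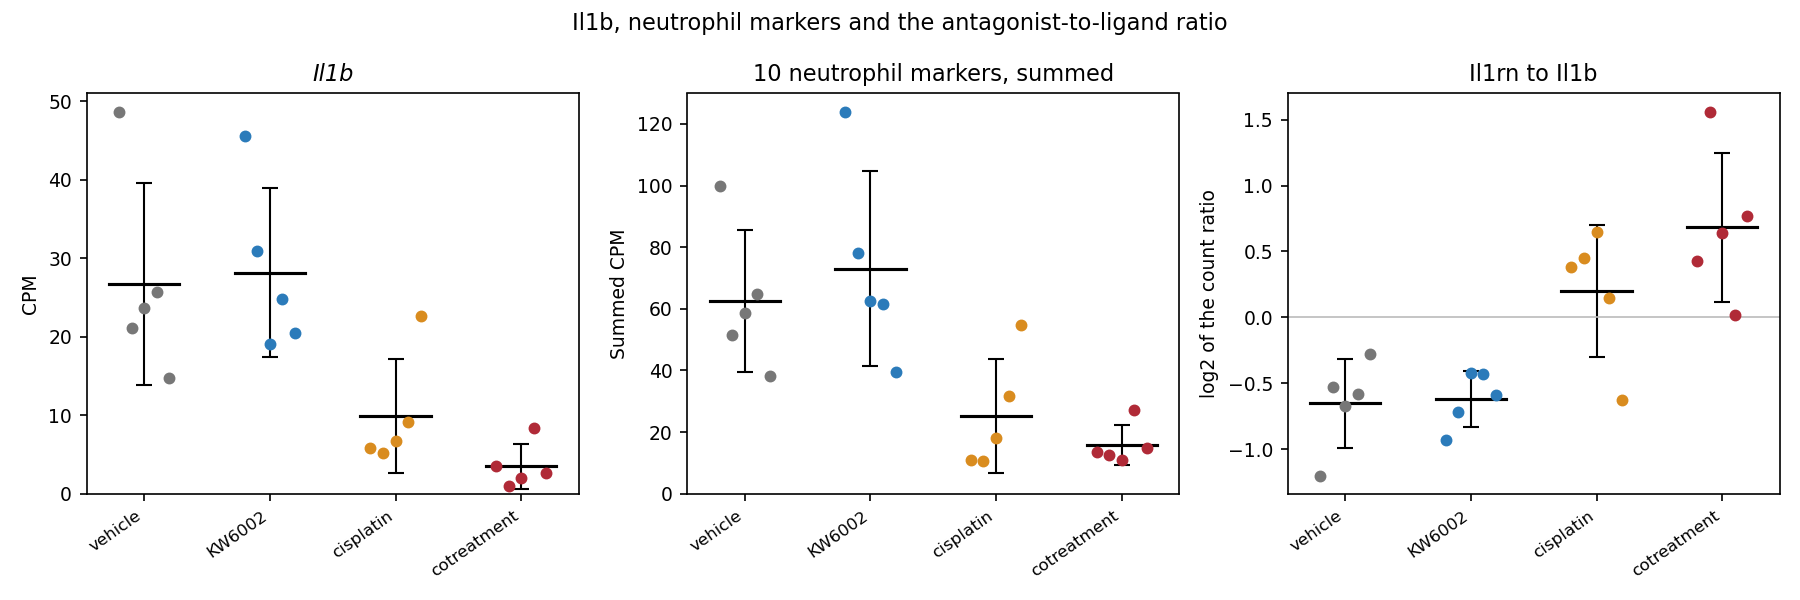
Il1b in CPM, the summed CPM of 10 neutrophil markers, and the log2 ratio of Il1rn to Il1b counts in each tumor, with means and SD (n = 5 per group). The cotreated tumors lie below every vehicle tumor for Il1b and for the marker sum, whereas cisplatin replicate 5, at 22.6 and 54.6 CPM, lies within the vehicle range of both. The ratio lies above 0 in all 5 cotreated tumors and below 0 in all vehicle and KW6002 tumors. It is not scaled for exon length, so the line at 0 does not mark equal levels of the 2 mRNAs.

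For the members that passed in at least 1 comparison and had a mean of 50 counts or more, the genes with the nearest profile over the 20 tumors were found by the mean absolute difference of centred log2 CPM among 12741 genes. For Il1b they were S100a9 (0.28), the neutrophil chemokine Cxcl2 (0.33) and Slfn4 (0.36), beside a mean deviation of 1.3 for Il1b itself. For Il1rn they were Oasl2 (0.24), Clec7a (0.25) and Isg15 (0.27), of which Oasl2 and Isg15 are interferon-induced. For Tnf they were Bend4 (0.2), Lcp1 (0.21) and Kctd12 (0.22), and for Csf1 Pxdc1 (0.09), Nt5dc3 (0.09) and Ccdc137 (0.1). The mean deviation of the member itself was 0.72 for Il1rn, 0.4 for Tnf and 0.18 for Csf1. Il6 and Csf3 had too few counts, and Lif and Il11 passed in no comparison. These are descriptions over tumors that share groups.

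The pathway lists are read against the 23.5% of all genes that passed in cotreatment against vehicle and the 10.4% that were lower. In cisplatin against vehicle these shares were 10.6% and 4.56%, and in cotreatment against cisplatin 4% and 1.71%. The receptors showed no common direction. Of 14 receptor genes tested in cotreatment against vehicle, Lifr (0.89, SE 0.22, edgeR adjusted P = 0.00442) and Il6ra (0.5, adjusted P = 2.42e-05) were higher, and Csf3r (-1.2, adjusted P = 0.0103) and Csf1r (-0.32, adjusted P = 0.0334) were lower. The 4 of 14 called and 2 of 14 lower were near the shares over all genes. Csf3r, the receptor of CSF3, is carried by neutrophils. After cisplatin alone the single receptor gene that passed was Il1r1, the signalling IL-1 receptor, at -0.33 (adjusted P = 0.000631). Against cisplatin tumors, cotreated tumors had Il6ra (0.37, adjusted P = 0.00516) and Lifr (0.76, adjusted P = 0.0479) higher.

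Related ligands were lower in 5 of 16 after cotreatment. Il1f9, which encodes IL-36 gamma, changed by -3.07 (SE 0.72, edgeR adjusted P = 0.00248) and Il12b by -1.54 (adjusted P = 0.00024), and Ctf1, of the gp130 family, by -0.49 (adjusted P = 0.000951). Il1f9 and Il12b were rare. Il1f9 had 0.989 ± 0.627 CPM after vehicle and 0.113 ± 0.056 after cotreatment, and Il12b 0.772 ± 0.151 and 0.26 ± 0.0779 CPM. Osm, a further gp130 ligand, was lower against vehicle (-0.93, adjusted P = 0.0105) and against cisplatin (-1.04, adjusted P = 0.0252). After cisplatin alone Il12b (-1.4, adjusted P = 0.00172) and the alarmin Il33 (-0.53, adjusted P = 0.00659) were lower. Among 15 genes of release and processing, Nlrp3, the inflammasome sensor upstream of caspase-1, was lower (-0.9, adjusted P = 0.000128), as was Adam17, the protease that sheds TNF (-0.53, adjusted P = 8.79e-06), and the DNA sensor Aim2 was higher (0.54, adjusted P = 0.000568). The 3 of 15 called and 2 of 15 lower were likewise near the shares over all genes. Adam17 was lower after cisplatin alone too (-0.45, adjusted P = 0.000187), and against cisplatin Nlrp3 came to -0.65 (adjusted P = 0.0156) and Aim2 to 0.4 (adjusted P = 0.0314).

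NF-kB subunits and inhibitors were lower in 6 of 18, with a median log2 fold change of -0.12. Nfkb2 changed by -0.55 (edgeR adjusted P = 8.79e-06), Nfkbie by -0.81 (adjusted P = 1.6e-05) and Rel by -0.63 (adjusted P = 4.81e-05). After cisplatin alone Rel (-0.47, adjusted P = 0.00237) and Nfkbie (-0.41, adjusted P = 0.0152) were lower. Against cisplatin, cotreated tumors had Nfkb2 (-0.39, adjusted P = 0.00439) and Nfkbie (-0.4, adjusted P = 0.0371) lower.

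Targets of IL-1 and TNF were lower in 10 of 19 and higher in none, with a median of -0.61. Irf1 changed by -0.62 (adjusted P = 1.32e-06), the vascular adhesion molecule Vcam1 by -0.61 (adjusted P = 6.74e-05) and the monocyte chemokine Ccl2 by -1.03 (adjusted P = 0.000183). After cisplatin alone 4 of the 19 were lower, where 4.56% of all genes were, among them the matrix proteases Mmp3 (-0.79, adjusted P = 0.00232) and Mmp13 (-1.78, adjusted P = 0.00661) and the apoptosis inhibitor Birc3 (-0.38, adjusted P = 0.00529). Against cisplatin 3 of the 19 were lower, where 1.71% of all genes were, namely Irf1 (-0.35, adjusted P = 0.0052), Vcam1 (-0.33, adjusted P = 0.0447) and the monocyte chemokine Ccl7 (-0.8, adjusted P = 0.0321).

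Of the 19 targets and regulators of the IL-6 family, 3 were lower, namely Timp1 (-0.53, edgeR adjusted P = 0.0388), Jak2 (-0.37, adjusted P = 0.000519) and Socs1 (-0.41, adjusted P = 0.0252). Pias3, an inhibitor of STAT3, was higher at 0.81 (adjusted P = 1.7e-06), and was also higher after cisplatin alone (0.42, adjusted P = 0.00394) and against cisplatin (0.39, adjusted P = 0.0145). Of 11 regulators of the decay and translation of cytokine mRNA, not all of them decay factors, 2 were lower, Hnrnpd and Elavl1, both at -0.33. The shares of lower genes in these last lists, 3 of 19 and 2 of 11, were near the 10.4% over all genes.

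**Figure D4:**
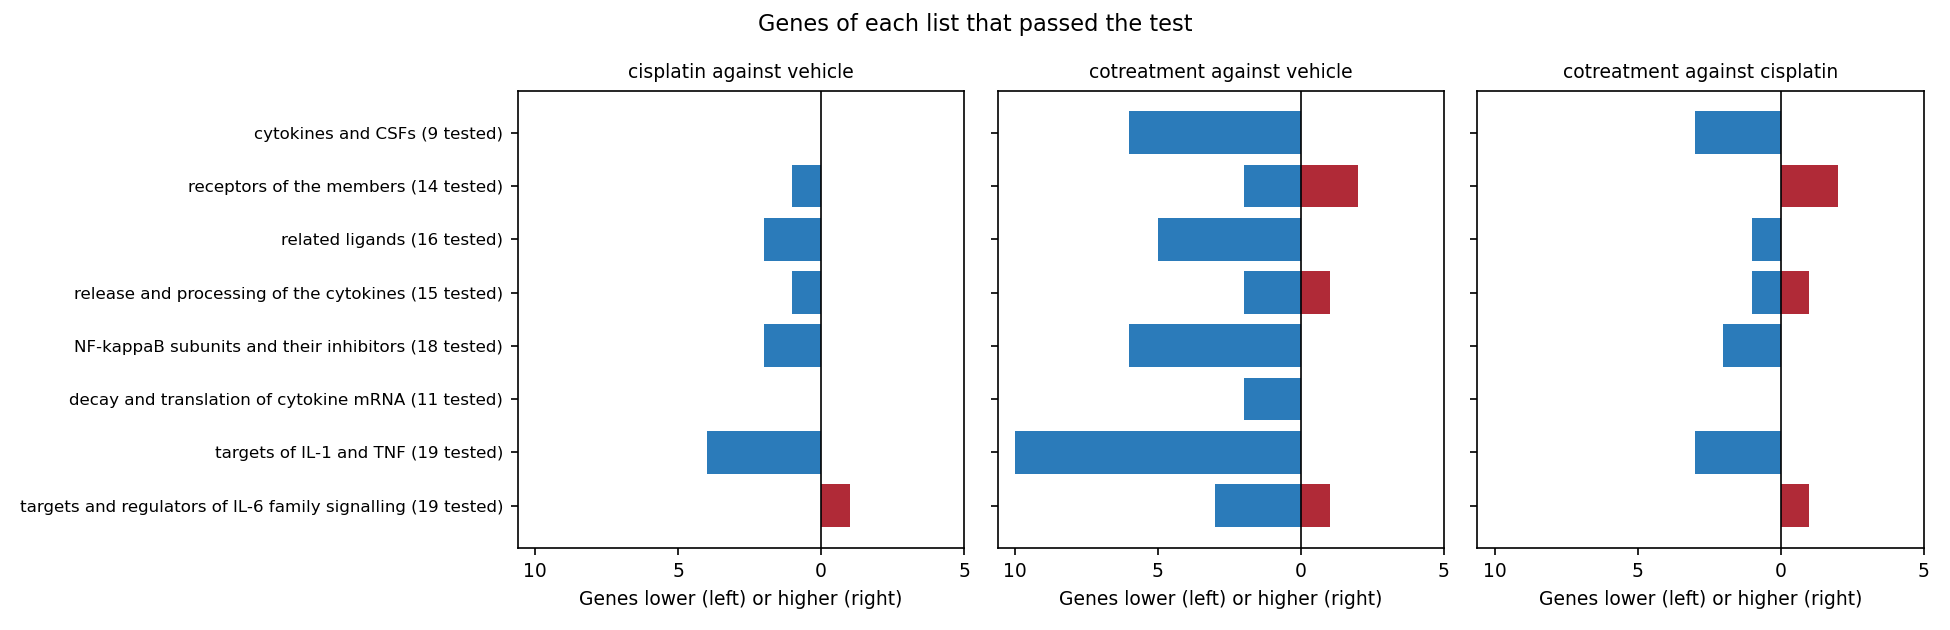
Number of genes of each list that passed the test in 3 comparisons, with lower genes drawn to the left and higher genes to the right. Targets of IL-1 and TNF have 10 lower genes in cotreatment against vehicle and 4 in cisplatin against vehicle.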

How the data were processed

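The deposited table holds raw counts of reads for each Ensembl gene in each tumor. The authors made stranded poly(A) libraries, aligned single-end reads to mm10 with STAR, kept unique alignments and counted them with HTSeq version 0.6.1p1 (submitters' processing notes). The strand option was not given in the sources used here. Reads without molecular identifiers are not independent molecules. Groups came from the sample titles. The label of vehicle replicate 1 names the carrier alone and those of the other vehicle tumors repeat the word; they were treated as 1 group, and without that tumor the same 6 members passed in cotreatment against vehicle, beside 22.1% of all genes. Nothing states separate litters or cages, so P values measure the spread between these tumors.

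Counts were filtered with filterByExpr (16665 of 35226 genes retained) and scaled by TMM. They were fitted over all 20 tumors with the robust quasi-likelihood model of edgeR version 4.0.16 in R version 4.3.3. The fit was also run on simulated data. The limit first set there for altered genes found was missed once and then replaced by other checks. P values were adjusted over all tested genes by the Benjamini-Hochberg method, two-sided. SE is the log2 fold change divided by the root of the F statistic. None of the 40 pairs of tumors of the same group were duplicates. The members, gene lists, tests and alternatives were chosen with earlier results of these data known. All 10 members are named. Of each pathway list, up to 3 higher and 3 lower genes with the smallest adjusted P among those called are named in cotreatment against vehicle, and likewise in cisplatin against vehicle and cotreatment against cisplatin. Markers of other cells are given by counts and sums. Il36a, Il36b, Il36rn, Il3 and Krt1 were not analysed here. Alternatives included DESeq2 version 1.42.0. Gene models came from GENCODE and promoters from RefSeq on GRCm38.p6. The longest annotated 3′ untranslated region per gene was used.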

Additional observations from a re-analysis of the deposited data

Results flagged for a closer look

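In 5 groups of 5 tumors, 1 tumor lay far from the others by Dixon's test, out of 40 groups of a gene looked at; chance gives about 1 in 20. Vehicle replicate 1 was high for Il6 at 2.66 CPM and for Csf2 at 0.966 CPM. Cisplatin replicate 5 was high for Il6 at 1.38 CPM, for Il1b at 22.6 CPM and for Csf3 at 2.5 CPM. The part of any one cell type in these values was not tested.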

How the results depend on the processing

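No log2 fold change of a member that passed in the fit of all tumors changed sign under any alternative run. Of 1778 member values under alternatives, 1715 kept their side of the threshold, 36 lost it and 27 gained it; 57 values that passed neither way changed sign.

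Members called in cotreatment against vehicle numbered 3 with at least 10 counts in every tumor, where 23.5% of 14048 genes passed (Il6, Csf3 and Il1a then being untested, and Csf1 at -0.32 under the fold limit) and 2 with the later code run (13.3% of all genes). With separate run terms, which refer to the earlier run, they numbered 7 there (22.8% of all genes) and 7 against KW6002 (25.2%), Il1a being gained, whose direction was opposite in the later run. Referred to the later run, an alternative chosen after seeing the data, they numbered 4 (21.8%) and 4 (19.9%). In cotreatment against cisplatin they numbered 0 with only the groups compared (1.24%) and 0 with the later run (0.006%), and against KW6002 they numbered 2 with the later run (10%). In cisplatin against vehicle they numbered 4 with separate run terms (6.61%), 3 with these averaged over the runs (10.4%, also chosen after seeing the data), 0 at the later run (14.8%) and 2 with DESeq2 (11.1%), and in the interaction 3 with DESeq2 (1.97%). Leaving out 1 tumor gave 0 to 4 members for cisplatin against vehicle, 5 to 6 for cotreatment against vehicle, 0 to 4 for cotreatment against cisplatin, 6 for cotreatment against KW6002 and 0 to 3 for the interaction, beside 8.36 to 12.4%, 19.9 to 24.3%, 1.74 to 6.1%, 19.8 to 24.2% and 0 to 1.35% of all genes.

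Over all genes, no fold limit gave 2750 calls for cisplatin, 5906 for cotreatment against vehicle, 1087 against cisplatin and 5837 against KW6002. Only the groups compared gave 207 for cotreatment against cisplatin. The later run gave 2763, 2215, 1 and 1667 in the same order and 0 for the interaction, the earlier run 313 for cotreatment against cisplatin, and separate run terms 1101 for cisplatin. The interaction had 21 calls without a filter, 39 with at least 10 counts, 17 with the code run as a term, 26 with separate run terms at either run or averaged and 263 with DESeq2. Leaving out 1 tumor gave 1394 to 2071 calls in cisplatin against vehicle, 290 to 1017 in cotreatment against cisplatin and 0 to 225 in the interaction. The cause of these shifts was not tested, apart from the smaller number of tumors or genes that some settings hold by construction.

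Same-numbered tumors of different groups did not deviate together in the median (correlation of deviations -0.0258 over 30 pairs, beside 0.00705 over 120 other pairs). A correlation over 0.1 was seen in 12 of the 30 and 39 of the 120. This does not exclude a pairing, because replicate 1 was always in the earlier run of library codes and replicates 4 and 5 in the later. With a replicate block, members called were 6 for cotreatment against vehicle (22.6% of all genes) and 3 against cisplatin (3.5%), and the interaction had 0 calls over all genes. Low counts limit Csf2, Il1a, Il6 and Csf3.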
